A study of Mus musculus with 8 samples.

Results

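Antisense transcripts are RNAs read from the DNA strand opposite to a gene. In whole kidneys of aged mice, 149 of the 23386 genes in the deposited table were typed as antisense and had a mean of at least 1 FPKM over the 8 libraries. FPKM (fragments per kilobase of gene length, scaled to the library's reads) is a level corrected for gene length and depth. The members were chosen on this overall level, which does not use genotype, so their levels are a description and only the comparison of genotypes is a test. The table held 1173 antisense genes, of which 151 reached the mean of 1. None of these lay on chromosomes X or Y, and 2 were left out because they start in an interval of 3 Mb on chromosome 11 that holds the targeted gene. The other antisense genes on the same chromosomes, 992 in number, stood under a mean of 1.

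The groups were 4 wild-type (WT) and 4 Ctrp1-/- (KO) mice, all littermates of 49 weeks from crosses of heterozygous parents, on the C57BL/6J background after more than 6 generations of backcrossing. The KO allele, B6;129S5-C1qtnf1tm1Lex/Mmucd, was made in 129S5/Sv embryonic stem cells and lacks 679 bp of exon 4 of C1qtnf1, including 162 bp of the 3′ UTR, in every cell of the body. C1qtnf1 encodes CTRP1, a secreted relative of adiponectin. Each left kidney gave 1 library, and the series text calls the 4 libraries of a genotype biological replicates.

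An antisense RNA can be started from the same promoter region as its coding neighbour, running away from it, from inside the neighbour, or from beyond its 3′ end. Many such RNAs are degraded in the nucleus by the RNA exosome, while those that are cut and given a poly(A) tail can be stable. Some of the known ones act on the chromatin or the mRNA of the neighbour, and for most no function is known. In the kidney, antisense RNAs accompany genes of tubule identity, among them Hnf4a.

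The libraries held 15027400 to 19256378 counted reads. C1qtnf1 measured 3.85, 2.74, 3.18 and 4.75 scaled FPKM in WT replicates 1 to 4, and 0.188, 0.575, 0.228 and 0.311 in KO replicates 1 to 4, so the genotype labels and the targeted gene went together. The markers of the nephron were abundant in every library, with Umod at 1116 to 1670 and Slc34a1 at 2318 to 2995 scaled FPKM. Of the adrenal and muscle markers, Cyp11a1 reached at most 0.0361 and Acta1 at most 0.0439, whereas the steroidogenic gene Star stood at 1.11 to 1.39 in every library, and the blood gene Hba-a1 ranged from 236 to 1376. Spearman's rho between a gene's deviation and its GC content was 0.48, 0.41, -0.25 and 0.30 in WT replicates 1 to 4 and -0.40, -0.075, -0.12 and -0.37 in KO replicates 1 to 4, so 3 of the WT libraries went one way and all 4 KO libraries the other. These are bulk samples, in which fewer cells of a type and less RNA per cell cannot be told apart.

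Poly-T beads select RNA with a poly(A) tail, and the 3′ ends of the annotated antisense transcripts are therefore shown first. The hexamer AATAAA, or its variant ATTAAA, directs cleavage and polyadenylation a short distance downstream of it. The sequences below are the last 30 bases of annotated transcripts (GENCODE vM21, build GRCm38, the same assembly as mm10), written 5′ to 3′ on the strand of the transcript, with the hexamer in capitals. The first 7 ends were picked because they hold the hexamer: 4 belong to members among the 10 of highest level and 3 to members whose WT and KO values did not overlap. Of the 10 members of highest level, 4 hold a hexamer at an annotated end and 6 do not, and Gm15848, Hoxb5os, Hnf4aos, Brip1os, Rab10os and Far1os also have an annotated end without one.
Gm15848, chr1:130809977-130810006, minus strand: tagattatatgctAATAAAgtcttcaaaga
Hoxb5os, chr11:96291024-96291053, minus strand: ttgaAATAAAagcaaggcatctgatgaaaa
Hnf4aos, chr2:163493807-163493836, minus strand: cgttAATAAAcgaatgagtaagtcagcaaa
Brip1os, chr11:86211163-86211192, plus strand: aagcatctAATAAAaagttatatatattcc
Rab10os, chr12:3250348-3250377, plus strand: gccaAATAAAaactcgtaatttataactca
Prkag2os1, chr5:24906821-24906850, plus strand: attcaccAATAAAagccttttagagtctgg
Far1os, chr7:113530489-113530518, minus strand: ctttaaaacATTAAAaatgcaatacatgga
The annotated ends of 2 further members held neither hexamer in their last 50 bases.
Gm15347, chr8:12860358-12860387, minus strand: gaaagaaccaacctgagcatgggatgctgg
Gm15895, chr8:110807448-110807477, plus strand: agatgatgcagccagtaaacgaacttgctg

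Some of the members hold such a hexamer near an annotated end and others do not. In the last 50 bases of at least 1 annotated transcript, on the strand of the transcript, AATAAA or ATTAAA was found for 76 of the 143 members with an annotated transcript (53.1%), and AATAAA alone for 64 (44.8%). The share with either hexamer was 49.0% of 966 antisense genes under a mean of 1, 70.3% of 266 lincRNA genes tested and 89.2% of 12706 coding genes tested. A gene with more transcripts has more chances to hold a hexamer. Counted over transcripts, the order was another: the share was 38.5% of the members' 278, 42.1% in antisense genes under a mean of 1, 49.6% in lincRNA genes, 37.6% in coding genes and 33.7% of all 141767 in the annotation. A hexamer is a description of these letters only, and its absence in this window says nothing about the RNA.

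Most members lay over a coding gene of the opposite strand. By start, end and strand, 120 of the 149 overlapped at least 1 such gene, 118 different ones in all, and 14 overlapped more than 1; the gene of the largest overlap was taken as the partner. Of the 149, 46 lay inside the partner, 45 were head-to-head with it (their 5′ ends overlapping), 23 were tail-to-tail (3′ ends overlapping), 6 spanned it and 29 overlapped no coding gene of the opposite strand. In 23 of the 45 head-to-head pairs the antisense start lay at most 1000 bases inside the partner, with a median of 980 bases and a range of 9 to 34912. Of the 29 without a partner, 16 began 16 to 703 bases upstream of the nearest opposite coding start, running away from it. Only 20 members carried the symbol of their partner, such as Rab10os, and 5 also overlapped a coding gene of their own strand.

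Promoters rich in CG dinucleotides are typical of widely expressed genes. Of the members, 56 matched a RefSeq promoter by symbol (GRCm38.p6, 250 bases before to 50 after the start). For a symbol with more than 1 window, the highest count was taken. In 55.4% of these members it was at least 10 CG dinucleotides. The share was 80.0% of the 85 partners with a promoter, 34.1% of 369 antisense genes under a mean of 1 and 83.6% of the coding genes tested with a match. It was 45.8% of all 27025 symbols with a promoter window of the same length. A symbol with more windows has more chances to reach the limit. These shares are descriptions of the matched genes, and the members without a match are not described by them.

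The sources used here do not give whether reads were counted by strand, and without strand the reads of a gene and of its antisense partner cannot be told apart. The annotation gave 1 measure of it. The table lists no gene with 0 reads in all 8 libraries, so presence in the table means at least 1 read. Among antisense genes of GENCODE vM21 within the range of the table's identifiers, 529 of 815 were listed when none of their exon bases lay in exons of opposite-strand genes (64.9%, exact 95% binomial interval 61.5% to 68.2%). With up to 50% of exon bases there, 746 of 928 were listed (80.4%, 77.7% to 82.9%), and with 50% to 90%, 108 of 166 (65.1%, 57.3% to 72.3%). With at least 90%, 9 of 64 were listed (14.1%, 6.64% to 25.02%), and with all exon bases covered, 4 of 42 (9.52%, 2.66% to 22.6%). The intervals cover counting error only. Genes almost wholly covered by opposite exons were thus mostly missing from the table, and the cause was not tested.

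**Figure D1:**
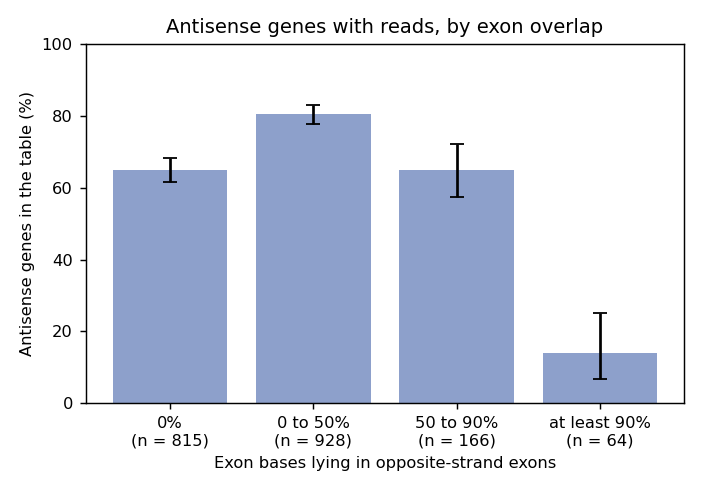
Share of annotated antisense genes (%, vertical axis) that the table lists, in 4 classes of the percentage of their exon bases lying in opposite-strand exons (horizontal axis, with the number of genes). Bars are shares and lines are exact 95% binomial intervals; the class of at least 90% stands at 14.1%, and the other 3 classes between 64.9% and 80.4%.

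The members' own exons overlapped opposite exons in part. Of the 143 members found in vM21, 61 had no exon base in an opposite exon and 82 had some, with a median of 17.4% among the latter. In 7 members the share was over 50% and the highest share was 80.5%. No member reached 90%. In the 46 members inside the partner the median share was 0. This measure covers exons only, and reads from the introns of a partner were not examined. The annotation of this release typed 130 of the 143 as antisense, and 2, among them 5430417L22Rik, as protein-coding. The start, end and length were the same as in the table for 73 members, so the overlaps of the others are those of a later gene model.

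The members were short and scarce. Their median length was 750 bases (107 to 5023), against 3085 bases for the coding genes tested, and their median GC content was 50.5%, against 50.3% for all genes tested. The median level was 2.36 FPKM, with 8 members at 10 FPKM or more, 82 from 2 to 10 and 59 under 2. For comparison, the genes tested had a median of 7.96 FPKM when coding, 1.495 when typed lincRNA and 1.18 when typed antisense. The genes tested were kept at a mean of at least 0.5 and the members at 1, so these medians rest on unlike limits. The antisense genes tested include the members. All members together took 0.0637% of the counted reads. A member had 25 to 6578 reads over the 8 libraries, with a median of 272, and 1 to 984 in a single library, with a median of 34. The spread followed the reads: the coefficient of variation over the 8 libraries had a median of 10.5% in the 19 members with over 1000 reads and of 35.5% in the 19 members with under 100.

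At the threshold, Plet1os (1.01 FPKM), Gm27252 (1.01) and Gm26935 (1.00) were just inside and had 151, 91 and 70 reads. Gm12264 (0.9999), Mypopos (0.985) and Gm14167 (0.985) were just outside, with 67, 75 and 57 reads. In deposited FPKM, Gm12264 measured 1.38, 1.58, 1.26 and 1.48 in WT and 0.133, 0.623, 0.705 and 0.839 in KO, without overlap. Mypopos measured 0.336, 0.605, 1.01 and 0.659 in WT and 1.19, 1.85, 1.05 and 1.18 in KO, also without overlap. Over all genes tested, groups did not overlap in 8.62%. In Gm14167 and in those just inside, the groups overlapped. The values on either side of the limit differed by less than the spread of any of these genes between libraries.

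Gm15848 was the most abundant member by far, at 59.2 FPKM. It lies on chr1:130809977-130824084, minus strand, tail-to-tail with Fcamr, the gene of a receptor for IgA and IgM. It measured 64.8, 52.7, 60.7 and 57.9 scaled FPKM in WT replicates 1 to 4 and 57.8, 56.2, 50.7 and 71.6 in KO replicates 1 to 4. The groups overlapped over their whole range, and the log2 fold change of KO over WT was -0.01 (SE 0.10). Fcamr, at 33.6 FPKM, stood below its antisense transcript in every library.

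Gm15347 was the second, at 22.1 FPKM (chr8:12860358-12877344, minus strand), tail-to-tail with Atp11a, which encodes a phospholipid flippase. It measured 17.5, 14.8, 10.4 and 25.3 scaled FPKM in WT and 30.1, 35.2, 17.96 and 25.3 in KO. The groups overlapped, with WT replicate 3 the lowest of all libraries.

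Hoxb5os stood at 19.2 FPKM (chr11:96291024-96306910, minus strand) and spans Hoxb6, a homeobox gene that specifies position along the body axis. Its WT libraries held 20.2, 17.8, 20.2 and 18.8 scaled FPKM and its KO libraries 17.5, 21.0, 20.4 and 17.2. Hnf4aos, at 15.4 FPKM (chr2:163493807-163541720, minus strand), runs head-to-head with Hnf4a, the nuclear receptor that maintains proximal tubule identity. The antisense start lies 34912 bases inside Hnf4a, the farthest of the head-to-head pairs. Hnf4aos measured 17.0, 15.4, 15.8 and 15.001 in WT and 17.2, 14.6, 12.7 and 15.2 in KO. In both the groups overlapped, with log2 fold changes of -0.02 (SE 0.08) and -0.09 (SE 0.09).

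Brip1os, at 11.1 FPKM, is one of the longest members (4423 bases) and spans Ints2, which encodes a subunit of the Integrator complex that cleaves nascent RNA. It measured 10.2, 10.7, 11.8 and 11.1 scaled FPKM in WT and 12.2, 10.7, 10.5 and 11.1 in KO, and its log2 fold change was 0.02 (SE 0.06). Hotairm1, a transcript of the HoxA cluster, stood at 10.3 FPKM, with 10.2, 12.2, 10.9 and 9.30 in WT and 9.45, 9.57, 10.7 and 10.0 in KO. The groups of both overlapped. The remaining members of the highest 10 were Gm17201 (12.7 FPKM, inside Ankrd52), Gm12473 (12.4, head-to-head with the natriuretic peptide receptor gene Npr2), Gm11695 (9.81, head-to-head with Slc16a5 of the monocarboxylate transporter family) and 5430417L22Rik (9.71, no partner). Gm12473 varied among WT libraries, from 8.29 in replicate 3 to 17.3 in replicate 4. Leaving out 1 library at a time gave log2 fold changes of KO over WT from -0.62 to -0.28 for it. The smallest adjusted p of Gm12473 in an alternative limma fit was 0.0659, so it was not called.

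**Figure D2:**
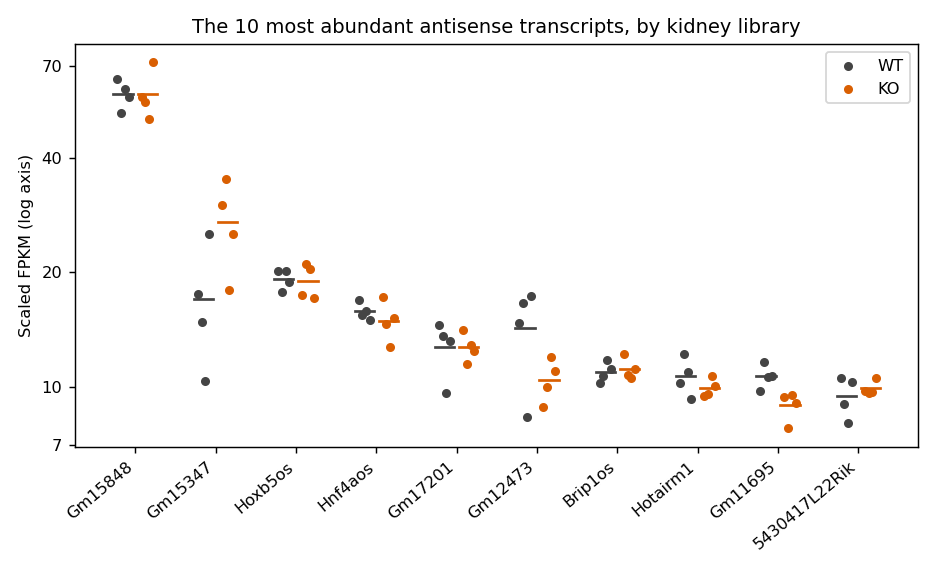
Scaled FPKM (log axis) of the 10 most abundant members in each library, WT in grey and KO in orange, with a line at each group's mean. WT and KO points overlap in 9 of the 10, and in Gm11695 the 4 KO libraries (7.77 to 9.48) sit below the 4 WT libraries (9.74 to 11.6).

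Members usually stood below the coding gene they overlap. The partners had a median of 12.1 FPKM, the median ratio of member to partner was 0.190, and 26 of the 120 members (21.7%) stood above their partner. Across the 120 pairs the levels of member and partner did not go together (Spearman's rho -0.091, a description across genes). The members were cut at a mean of 1 FPKM and the partners were not, so the rho does not cover antisense genes under that level. The median ratio was 0.117 for members inside the partner, 0.216 head-to-head and 0.284 tail-to-tail, with 8, 6 and 7 members above their partner. The 6 that span the partner had a median ratio of 2.60, and 5 of them stood above it. Spanning members also had the highest median level, 6.13 FPKM, against 2.15 inside, 2.31 head-to-head, 3.81 tail-to-tail and 2.41 without a partner.

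Among the members that exceeded their partner by most in FPKM were Gm15848, 1810059H22Rik, Gm17201 and Gm15638. 1810059H22Rik, at 7.62 FPKM, spans Gm15409 (0.656), and Gm15638, at 6.98 FPKM, meets Plcxd2 (0.703) at its 3′ end. 1810059H22Rik also overlaps the coding gene Katnal1 on its own strand and is absent from vM21. Gm15638 also overlaps Phldb2 on the opposite strand, which stood higher than Plcxd2, so its excess depends on the choice of partner. Rab26os, at 3.28 FPKM, lies inside Rab26, a gene of a vesicle GTPase that was almost silent here (0.132 FPKM). At the other end, Snhg9 (1.02 FPKM) overlaps Rps2, a ribosomal protein gene at 657 FPKM, and Gm16146 (1.26) lies inside Cyb5a, the cytochrome b5 gene, at 517; both were chosen for these ratios after their values were seen.

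**Figure D3:**
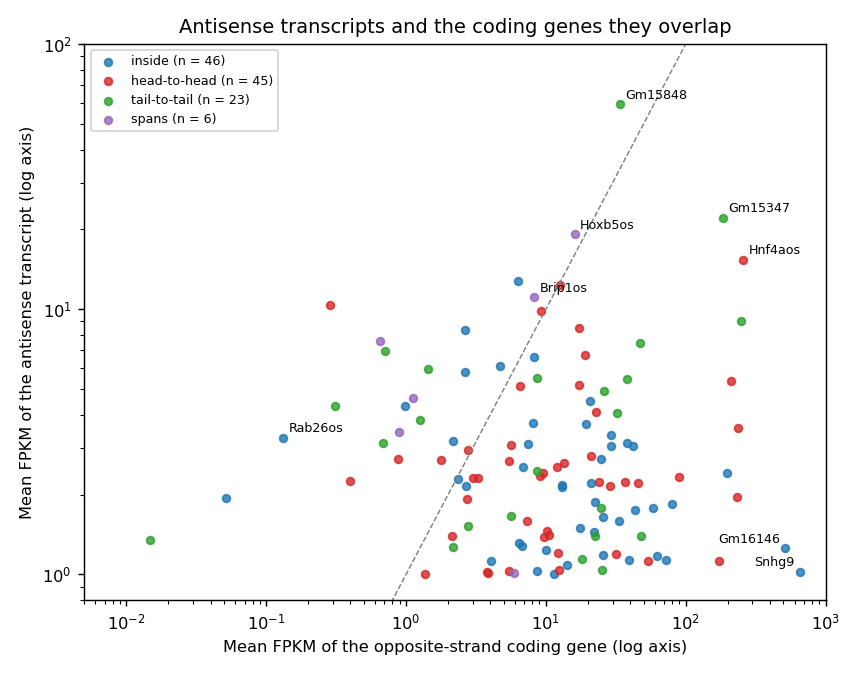
Mean FPKM over 8 libraries of each member (vertical, log axis) against the coding gene of the opposite strand it overlaps (horizontal, log axis), for 120 pairs coloured by arrangement. The dashed line marks equal levels; 26 points lie above it, and the spanning members are mostly on that side.

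Some of the partners were transcription factor genes, and the share of such genes among all coding genes was not counted. The following groups were formed after the values were seen and are descriptions. In the Hox clusters 6 members stood at 1.27 to 19.2 FPKM, and 4 of them were above their homeobox gene. Beside Hoxb5os and Hotairm1 these were Gm11536 and Hoxb3os over Hoxb3, Gm15050 over Hoxa3 and Hoxd3os1, which at 2.24 FPKM was 5.63 times as high as Hoxd3. Another 15 members overlapped a transcription factor gene outside the Hox clusters, at 1.01 to 15.4 FPKM, and only 1 of them, Gm16136 over Grhl2, exceeded it. Among them Junos (1.39) begins 688 bases inside the AP-1 gene Jun (9.73), and Emx2os (1.20) begins 263 bases inside Emx2 (12.1), a gene needed for kidney development. In this group 1 partner is shared by 2 members, which are not independent of each other.

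Genes of transport made up another group. Here 10 members lay over solute carrier or channel genes or their regulators, at 1.03 to 9.81 FPKM, and 1 of the 10, Gm11695, exceeded its partner. 4930442L01Rik (2.42 FPKM) lies inside Pdzk1, the scaffold of brush-border transporters, at 196 FPKM. Gm11788 (1.96) begins 554 bases inside Slc25a10, the mitochondrial dicarboxylate carrier gene, at 234. Gm11615 (1.78) lies inside Wnk4, a kinase gene of distal salt transport, at 58.6. The other members that carry the partner's symbol were of similar levels, such as Abhd11os (4.91), Adap2os (4.50), Rab10os (4.05), N4bp2os (2.95) and Erich2os (1.39).

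The comparison of genotypes asks whether loss of CTRP1 in aged mice goes with a different level of these RNAs. No member passed the test. All 149 were tested among 14022 genes with limma, and none had an adjusted p (Benjamini-Hochberg) under 0.05, beside 7 called over all genes (0.0499%). The smallest adjusted p of a member was 0.155. Of the 109 other antisense genes tested, which lie under the mean of 1 or in the interval of chromosome 11 left out, 1 was called. At an unadjusted p under 0.05 there were 21 members, 11 higher and 10 lower in KO, which is 14.1% of the members against 15.4% of all genes tested (7.18% higher and 8.26% lower). The voom fit on recovered reads called 0 members and had 14 at an unadjusted p under 0.05. With trends in GC content and length removed from each library, 0 members were called, 19 were at that level and 6 did not overlap. Without WT replicate 3, which stood apart from the other WT libraries in its GC trend, 0 were called and 24 were at that level. Groups did not overlap in 7 members, 4 higher and 3 lower, or 4.70% against 8.62% of all genes (4.34% higher and 4.28% lower). The members' counts were thus near or under the shares over all genes, most of which are coding. Among the 109 other antisense genes tested, 5.50% were at an unadjusted p under 0.05 and 2.75% did not overlap, with a median SE of 0.21. The same 2 shares were 13.3% and 7.69% in lincRNA genes and 6.59% and 2.99% in genes typed processed transcript.

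The differences were small and their precision was modest. The median log2 fold change of the members was 0.03, against -0.00 for all genes tested, and single values ran from -0.54 to 0.69, with 84 above 0 and 65 below. The median SE was 0.16 in members and 0.09 over all genes, and the median 95% interval of a member reached 0.36 to either side. In 141 of the 149 the interval lay within 1 unit of 0. These folds are on the log2(scaled FPKM + 0.5) scale, which understates the change of low genes, so 1 unit there stands for more than a doubling of FPKM. By arrangement, the members at an unadjusted p under 0.05 were 2 higher and 5 lower inside the partner, 4 and 2 head-to-head, 2 and 1 tail-to-tail, 1 and 0 spanning, and 2 and 2 without a partner.

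**Figure D4:**
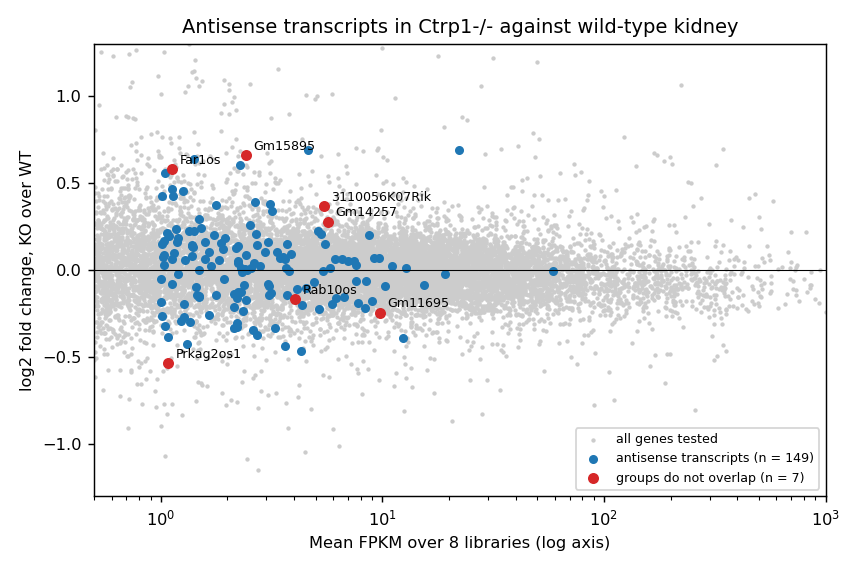
Vertical axis: log2 fold change, KO over WT, drawn against the mean FPKM over 8 libraries (horizontal, log axis) for the genes tested (grey), the 149 members (blue) and the 7 members whose groups do not overlap (red, named). Genes outside the drawn range are not shown; the members lie between -0.54 and 0.69, inside the cloud of all genes.

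In 4 members every KO library stood above every WT library. Gm15895, at 2.42 FPKM, lies head-to-head with Il34, the gene of a ligand of the CSF1 receptor on macrophages (chr8:110805638-110807477, plus strand). It measured 2.15, 1.62, 1.37 and 1.87 scaled FPKM in WT (1.75 ± 0.337, SD, n = 4) and 4.19, 2.88, 2.68 and 2.57 in KO (3.08 ± 0.751, SD, n = 4). The log2 difference was 0.66 (SE 0.15, limma adjusted p = 0.155), on 236 reads in all. Il34 measured 9.11, 7.40, 5.90 and 9.70 in WT and 14.02, 11.6, 10.1 and 8.39 in KO, with overlapping groups and an adjusted p of 0.28 by the limma fit.

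3110056K07Rik (chr12:70991615-71015832, minus strand) is tail-to-tail with Psma3, the gene of a subunit of the proteasome core, and shares no exon base with opposite exons. It measured 4.03, 5.30, 4.81 and 4.67 in WT and 5.76, 5.66, 6.77 and 6.61 in KO. Its log2 difference was 0.37 (SE 0.09, limma adjusted p = 0.159), whereas Psma3 had a mean of 37.9 ± 0.738 in WT and 38.1 ± 1.13 in KO (SD, n = 4). Psma3 thus had nearly the same level in all libraries.

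Gm14257, with no partner (chr2:155593565-155594475, minus strand), measured 5.51, 4.86, 4.65 and 5.27 in WT and 6.23, 6.03, 5.80 and 6.96 in KO. Its log2 difference was 0.28 (SE 0.08, limma adjusted p = 0.180). Far1os lies inside Far1 (chr7:113530489-113564987, minus strand), whose product makes fatty alcohols for plasmalogens. Far1os measured 0.703, 1.01, 0.906 and 0.554 in WT and 1.22, 2.07, 1.03 and 1.49 in KO, on 138 reads in all, with a log2 difference of 0.58 (SE 0.18, limma adjusted p = 0.211). The highest WT and lowest KO libraries of Far1os almost touch. Far1 itself held 34.8, 33.6, 32.1 and 36.0 in WT and 49.3, 41.9, 43.2 and 41.9 in KO, without overlap, at a limma adjusted p of 0.108.

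In 3 members every KO library stood below every WT library. Prkag2os1 (chr5:24902569-24906850, plus strand) lies inside Prkag2, the gene of a regulatory subunit of the energy sensor AMPK. It measured 1.65, 1.31, 1.32 and 1.19 in WT and 1.03, 0.760, 0.581 and 0.794 in KO. The log2 difference was -0.54 (SE 0.13, limma adjusted p = 0.159), on 142 reads. Prkag2 also stood lower in each KO library, at 16.3, 15.9, 15.3 and 14.5 in WT and 12.4, 13.2, 11.9 and 14.1 in KO.

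Gm11695 (chr11:115462045-115463454, minus strand) lies just outside the interval of chromosome 11 left out around C1qtnf1. It measured 9.74, 11.6, 10.6 and 10.7 in WT and 9.36, 7.77, 9.48 and 9.07 in KO, a log2 difference of -0.24 (SE 0.08, limma adjusted p = 0.217). Its partner Slc16a5 had a mean of 9.75 ± 0.832 in WT and 8.76 ± 0.702 in KO (SD, n = 4), with overlapping groups. Rab10os (chr12:3235504-3250377, plus strand), tail-to-tail with the vesicle GTPase gene Rab10, measured 4.16, 4.39, 4.34 and 4.30 in WT and 4.04, 3.19, 3.75 and 4.16 in KO. Its log2 difference was -0.17 (SE 0.08, limma adjusted p = 0.353), and WT replicate 1 and KO replicate 4 were equal to 3 digits. Without KO replicate 2 the difference was -0.099.

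Gm15347 had one of the highest log2 differences of the members, 0.69 (SE 0.26, limma adjusted p = 0.266), with overlapping groups. Its partner Atp11a measured 176, 142, 92.0 and 181 in WT and 251, 243, 190 and 207 in KO, which did not overlap, a log2 difference of 0.63. WT replicate 3 was the lowest library for both genes. Of the exon bases of Gm15347, 44.7% lie in opposite exons, and how reads there were assigned was not tested.

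Of the 21 members at an unadjusted p under 0.05, 15 had a tested partner, and in 6 of the 15 the partner was also at an unadjusted p under 0.05 and in the same direction; in none was it in the opposite direction. Over all other overlapping pairs of opposite strands, 48 of 388 genes at that level had such a partner in the same direction and 12 in the opposite one. The 6 were Gm15347, Gm15895, Far1os and Prkag2os1, described above, and, named after their values were seen, 0610040F04Rik with the circadian transcription factor gene Bhlhe40, and 0610031O16Rik with the alcohol dehydrogenase gene Adh7. 0610040F04Rik measured 2.61, 2.70, 2.41 and 2.29 in WT and 2.39, 1.48, 1.79 and 1.99 in KO, and Bhlhe40 had means of 49.9 ± 3.99 and 40.8 ± 3.56 (SD, n = 4). 0610031O16Rik had means of 3.49 ± 1.23 and 5.76 ± 1.10, and Adh7 of 0.901 ± 0.373 and 1.34 ± 0.201 (SD, n = 4). These counts are a description with no test, since the members were taken for their p.

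**Figure D5:**
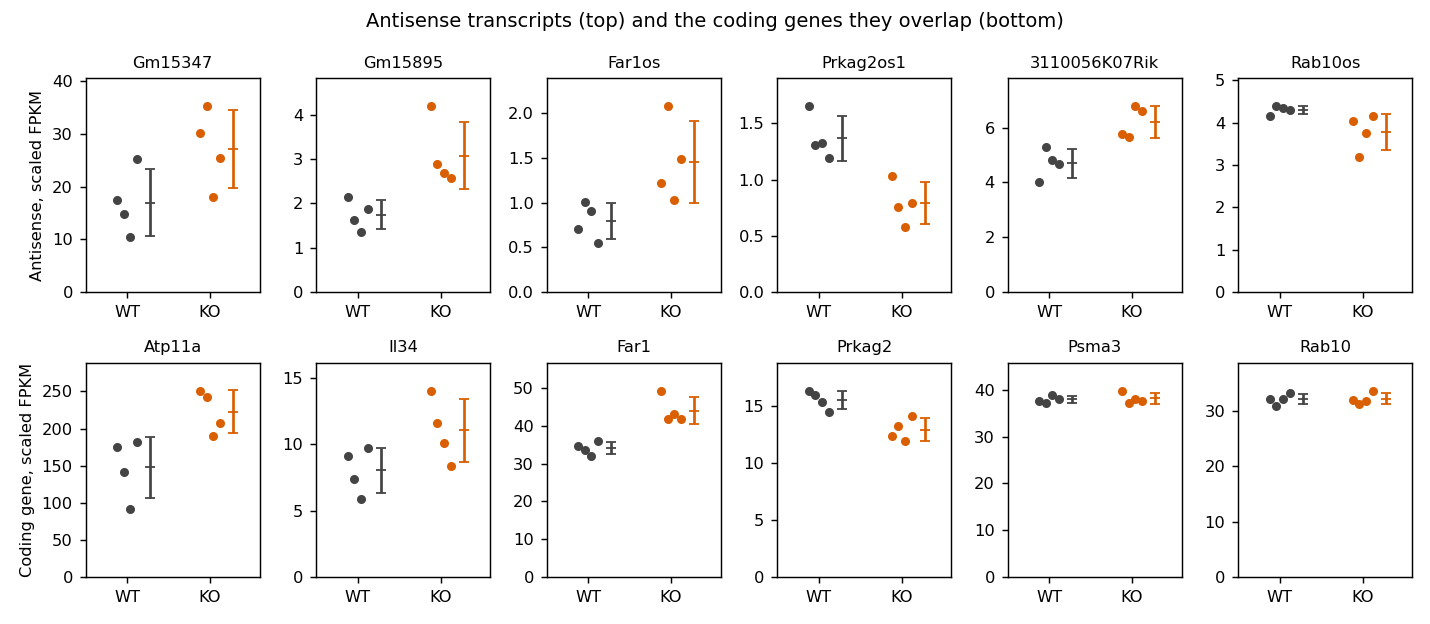
Scaled FPKM of 6 members (top) and of the coding gene each overlaps (bottom) in every library, WT in grey and KO in orange, with the mean and SD (n = 4) beside the points; every axis starts at 0. Atp11a, Far1 and Prkag2 separate the genotypes on the same side as their antisense transcript stands, while Psma3 and Rab10 lie level.

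The ratio of member to partner within each library was tested over all 1458 overlapping pairs of tested genes on opposite strands. None of the 114 member pairs was called with limma, and none of the 1458 (0.0%); the smallest adjusted p of a member pair was 0.321. At an unadjusted p under 0.05 stood 10 member pairs, 8 of them with a higher ratio in KO, or 8.77% against 10.1% of all pairs. Groups did not overlap in 4 member pairs, 3.51% against 6.17% of all pairs. The differences in ratio ran from -0.45 to 0.98 on the log2 scale, and the median 95% interval reached 0.39 to either side.

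The 4 pairs without overlap were those of 3110056K07Rik, 4930579G18Rik, 1700034P13Rik and Rab10os. For 3110056K07Rik over Psma3 the log2 ratio was -3.07, -2.70, -2.89 and -2.90 in WT and -2.68, -2.61, -2.40 and -2.43 in KO, a difference of 0.36 (SE 0.11, limma adjusted p = 0.321). For 4930579G18Rik, inside Acin1, a gene of an RNA splicing factor, it was -3.10, -3.19, -3.05 and -3.06 in WT and -2.76, -2.72, -2.99 and -2.91 in KO, a difference of 0.25 (SE 0.09). In 1700034P13Rik, which runs head-to-head with the deubiquitinase gene Vcpip1, the ratio stood lower in KO, by -0.37 (SE 0.17), with KO replicate 3 at -2.21 and the other KO libraries between -1.55 and -1.47. Without KO replicate 3 the difference was -0.19. For Rab10os over Rab10 the difference was -0.17 (SE 0.09).

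The machinery that acts on antisense RNA was read from 3 lists, and no member of any was called. Of 22 genes of the RNA exosome and nuclear RNA decay, 3 were higher and 0 lower at an unadjusted p under 0.05, and the list's median log2 fold change was 0.02. The 3 were Skiv2l2, the helicase that feeds RNA to the exosome (20.1 ± 2.21 scaled FPKM in WT, 24.96 ± 1.78 in KO; SD, n = 4), and the cap-binding genes Ncbp1 (11.3 ± 0.968 and 14.02 ± 1.69) and Ncbp2 (21.1 ± 0.730 and 23.3 ± 1.13). Of 23 genes that edit, cut or sense double-stranded RNA, 1 was higher and 0 lower, with a median of 0.02. It was Tlr3, an endosomal sensor of double-stranded RNA, at 2.02 ± 0.144 in WT and 2.55 ± 0.202 in KO (SD, n = 4). Of 20 genes of cleavage and polyadenylation, Cpsf2 and Cstf2 were higher, Cpsf1 and Pabpn1 were lower, and the median was -0.00. Over all genes the corresponding shares were 7.18% higher and 8.26% lower. These counts rest on single libraries: without WT replicate 3 they were 7, 5 and 6 in the exosome, double-stranded RNA and polyadenylation lists. Without another library they were 2 to 4, 1 to 2 and 2 to 5, the lowest polyadenylation count coming without KO replicate 1 or KO replicate 4. The exosome count was 2 without WT replicate 2, WT replicate 4, KO replicate 1 or KO replicate 4, and the double-stranded RNA count was 2 without KO replicate 2 or KO replicate 4.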

How the data were processed

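Poly(A)-selected RNA was sequenced from the left kidney of 4 WT and 4 KO mice; groups follow the genotype field of the labels. Extraction used Trizol and DNase I, and the selected RNA was fragmented and reverse transcribed, per the labels' protocols. Values were deposited as FPKM, per the file headers, in 8 columns and 23386 rows with each gene's mm10 position, length and type. The submitters' processing notes name STAR 2.5, HTSeq 0.6.1, CASAVA and DESeq2 without roles; the annotation release and the strand of the counting are not given in the sources used here. The table held 0 columns of other samples.

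FPKM times length gave whole multiples of 1 step for 100% of values (tolerance 0.01), so reads were recovered, 15027400 to 19256378 a library. Each library's FPKM was divided by a median-ratio factor (0.978 to 1.03), giving scaled FPKM. Genes with a mean of at least 0.5 were kept (14022). Log2(scaled FPKM + 0.5) entered a limma fit (version 3.58.1, R 4.3.3) with lmFit and trended eBayes. The fit used genotype only and was two-sided, with Benjamini-Hochberg over all genes and a threshold of 0.05. The log2 ratio over 1458 opposite-strand pairs was fitted with eBayes without a trend and Benjamini-Hochberg over all pairs, and otherwise in the same way. Means are ± SD over 4 libraries. A log2 fold change is KO over WT. The fits were also run on simulated reads with known changes, the same variability for every gene and no trend in GC content. That run cannot show how the fits handle the GC trends of these libraries. Exons and transcripts came from GENCODE vM21 (GRCm38), promoters from RefSeq.

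The members and lists were chosen with earlier results of these data known. Members named were the 10 highest, those whose groups, or pair ratios, did not overlap, up to 12 with the partner's symbol, those at the threshold, and the 5 exceeding the partner by most; others are said to have been chosen after their values were seen. Alternatives were other pseudocounts, filters and scalings, voom on recovered reads, array weights, removal of GC and length trends, other partner, overlap and level rules, and leaving out each library. Some members that this rule names are not reported here.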

Additional observations from a re-analysis of the deposited data

Results flagged for a closer look

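In 3 of the 72 groups of 4 libraries examined among the named genes, 1 library stood far from the other 3 relative to the group's range; chance gives this in about 1 in 20 groups. 5430417L22Rik was highest in KO replicate 4, at 10.5 scaled FPKM, against 9.65, 9.68 and 9.76 in the other KO libraries. 1700034P13Rik, the transcript head-to-head with Vcpip1, was lowest in KO replicate 3, at 0.462, against 0.989, 1.06 and 1.06, and its lower ratio to Vcpip1 in KO was widest there. Plet1os was highest in KO replicate 3, at 1.80, against 0.811, 0.852 and 0.912, and in the same library its partner Plet1 stood at 14.5, against 3.30 to 5.48 in the other KO libraries.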

How the results depend on the processing

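No member was called under any alternative, and 14 to 26 members stood at an unadjusted p under 0.05. Leaving out 1 library at a time, 5 to 16 genes were called over all genes (16 without WT replicate 3), 15 to 24 members stood at an unadjusted p under 0.05, and 10 to 15 members had groups that did not overlap, where fewer libraries make this easier by construction. With no filter on low values 1 of all pairs was called. With the partner of highest level the median ratio was 0.170, and at a mean of at least 2 there were 90 members. Among the 18 named genes with a fold change, those near 0 changed sign: Gm15848 was 0.00043 with the deposited FPKM as they are, 0.014 with quantile normalization and 0.040 with array weights, Hoxb5os 0.028 and Brip1os -0.073 with GC and length trends removed, and Gm17201 -0.055 with array weights. Leaving out 1 library gave -0.10 to 0.062 for Gm15848, -0.069 to 0.026 for Hoxb5os, -0.021 to 0.055 for Brip1os, -0.11 to 0.076 for Gm17201 and -0.0018 to 0.12 for 5430417L22Rik. The cause was not tested. The members that separated the genotypes kept their direction under every alternative run. No paired analysis was possible because the animals of the groups share no number in the labels. Members had a median of 34 reads a library, and counting error was not separated from the variation between animals.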
